A study of Homo sapiens with 24 samples.

Results

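The response of HEK293T cells labelled MIR210-KO to low oxygen was measured by mRNA sequencing of 4 libraries from hypoxia and 4 libraries from normoxia. These 8 libraries, of 24 in the series, were taken by their column names, and their counts were joined on the gene identifier. The other groups are WT and MIR210HG-KO cells, each with 4 libraries per oxygen level. Hypoxia was 1% O2 and normoxia was 21% O2, both for 24 hours, in high-glucose DMEM with heat-inactivated fetal bovine serum and antibiotics. HEK293T is a line from human embryonic kidney that carries the SV40 large T antigen. The labels do not say how the knockouts were made, whether a line is 1 clone, or whether replicates are separate cultures. The p-values therefore measure the spread between libraries, which may be technical.

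When oxygen is plentiful, prolyl hydroxylases of the EGLN family mark the alpha subunits of hypoxia-inducible factor (HIF) for destruction through the VHL protein. In low oxygen the subunits persist, pair with ARNT and bind a core motif written ACGTG or GCGTG near their target genes. One of these targets is MIR210HG, the long non-coding host gene of the microRNA miR-210. Mature miR-210 is known for repressing mitochondrial and iron-sulfur cluster genes such as ISCU and COX10.

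The 2 mature miR-210 strands are shown because their gene gives the cells their label. Each is given 5′ to 3′ with the seed, bases 2 to 8, in capitals.
hsa-miR-210-3p: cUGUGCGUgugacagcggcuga
hsa-miR-210-5p: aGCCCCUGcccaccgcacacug
The sequences are from RefSeq (GRCh38.p14). The 3p strand lies at chr11:568112-568133 and the 5p strand at chr11:568150-568171, both on the minus strand. These libraries hold fragments of long RNA, so mature miR-210 was not measured.

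At the targeted locus, the cells labelled MIR210-KO still gave reads. The gene MIR210, the hairpin's own entry, had 0, 0, 0 and 1 counts in the 4 normoxia libraries and 11, 6, 6 and 10 in the 4 hypoxia libraries. The sums, 1 and 33, have a ratio of 28.4 relative to library totals (95% exact Poisson interval 4.75 to 1154, counting error only). WT cells had 3 and 30 counts, and MIR210HG-KO cells had 0 and 0. Since the edit is not described, these long-RNA reads check neither the loss nor the presence of miR-210. The host gene MIR210HG stood at 3.50, 2.10, 3.59 and 4.71 CPM in normoxia, where CPM is the usual count relative to the library's total, scaled here with TMM factors. In hypoxia it stood at 22.2, 18.9, 21.5 and 20.4 CPM. Every hypoxia library was above every normoxia library, and the log2 fold change was 2.57 ± 0.14 (SE; adjusted p = 5.13e-14). In WT cells the log2 change was 1.74 ± 0.13, and the response of the knockout-labelled cells was larger by 0.83 ± 0.19 (adjusted p of the difference = 0.00208).

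The 8 libraries held 25960367 to 36126739 counts, with 28063803 or more in hypoxia. Hypoxia replicate 1 stood apart from the other 3 hypoxia libraries. Long non-coding genes took 1.88% of its counts against 2.11% to 2.31%, and ribosomal protein genes took 9.45% against 8.27% to 8.73%. In normoxia the same shares were 1.25% to 1.41% and 9.09% to 9.70%. The level of long genes relative to short ones was -0.039 on the log2 scale in that library, 0.11 to 0.22 in the other hypoxia libraries and -0.30 to -0.12 in normoxia. Among the WT hypoxia libraries, replicates 1 and 3 stood apart from 2 and 4 in the same shares. Of 14 blood and endothelial markers, summed levels were 6.99 to 7.91 CPM in normoxia and 6.64 to 6.91 CPM in hypoxia, with CDH5 and HBG1 at 0. Of 22 kidney genes the sums were 416 to 421 and 407 to 419 CPM, with UMOD at 0. The early kidney transcription factors SIX2, EYA1 and WT1 were detected.

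Most genes tested changed with oxygen in the knockout-labelled cells. Of 19952 genes tested, 5836 were higher in hypoxia and 5878 were lower, which is 58.7% in either direction, 29.3% higher and 29.5% lower. In such bulk samples, fewer cells of a kind and less RNA per cell cannot be told apart. Large changes were mostly rises: 1725 genes rose and 712 fell at least 2-fold, and 261 rose and 76 fell at least 4-fold. The libraries did not overlap between oxygen levels for 4894 of the genes higher and 5376 of the genes lower. Protein-coding genes leaned down, with 4049 of 14537 higher and 5397 lower (median log2 change -0.048). Long non-coding genes leaned up, with 1302 of 3489 higher and 195 lower (median 0.45). With upper quartile scaling the median of all genes moved from 0.035 to 0.18, and the share of calls that were higher moved from 49.8% to 64.1%. Small changes of whole gene groups are therefore read against that shift.

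Protein-coding genes were ranked by log2 change among those called, with no overlap between libraries and a mean of at least 5 CPM in whichever oxygen level was higher. A gene that is low in normoxia can thus enter the ranking of rises through hypoxia alone, and genes below that level in both, such as STC1, are left out. In this ranking the immediate-early transcription factor FOS came first. It had 1.48, 1.25, 1.80 and 1.16 CPM in normoxia and 14.1, 11.1, 9.44 and 12.6 CPM in hypoxia, a log2 change of 3.05 ± 0.19 (adjusted p = 2.12e-14). Next came LGR6, an R-spondin receptor (2.87), the zinc finger genes ZMAT1 (2.82) and ZC3H6 (2.42), and the chemokine receptor CXCR4 (2.73), all on the log2 scale. CXCR4 rose, with 10.6 to 13.3 CPM in normoxia and 77.2 to 82.2 CPM in hypoxia. EPS8L2 (2.57) overlaps DEAF1 and TMEM80, and its reads cannot be assigned by strand because the strand setting is not given in the sources used here. DDIT4, BHLHE40, HILPDA and P4HA1 completed the 10 and are described with their pathways. The largest falls were in DUSP2, a phosphatase of MAP kinases (-2.09), NOL6, a nucleolar protein (-1.996), and DOLK, the dolichol kinase of glycosylation (-1.94). PRR22 (-1.92), the mitochondrial deformylase PDF (-1.89, overlapping COG8), the mitochondrial gene MPV17L2 (-1.88, overlapping RAB3A) and the endoplasmic reticulum disulfide isomerase TXNDC5 (-1.84) followed. The remaining 3 of the 10 largest falls, MT-CO3, MT-CYB and MT-ATP6, are encoded by the mitochondrial genome. Among long non-coding genes, MALAT1, a nuclear RNA, rose, with 22.3 to 26.2 CPM in normoxia and 96.3 to 126 CPM in hypoxia (2.13 ± 0.097). INTS6-AS1 rose by 2.33 ± 0.16, although it overlaps INTS6. Under the same limits on level and overlap, the largest falls among long non-coding genes were in AP001505.1 (-1.23), CIRBP-AS1 (-1.10, overlapping CIRBP) and SNHG8 (-1.06). SNHG25 (-2.94) and SNHG9 (-1.74) fell further but stayed under 5 CPM.

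The oxygen-sensing genes moved in both directions, with log2 changes from -0.33 to 0.88. Of 11 HIF subunits, hydroxylases and regulators tested, 6 rose, 4 fell and 1 was not called, beside 29.3% of all genes higher and 29.5% lower. HIF1A, the main oxygen-labile subunit, had 107, 107, 104 and 101 CPM in normoxia and 90.2, 100.05, 94.0 and 92.1 CPM in hypoxia, a log2 change of -0.15 ± 0.06 (adjusted p = 0.0309). Its call was lost without either of normoxia replicates 1 and 2, without any of hypoxia replicates 1, 3 and 4, and under 6 other settings. EPAS1, the HIF-2 alpha subunit, stood at 26.1 to 27.3 CPM in normoxia and 33.7 to 36.3 CPM in hypoxia (0.40 ± 0.058). Its response exceeded that of WT by 0.47 ± 0.08 (adjusted p = 4.56e-05), and the HIF1A response minus that of WT was -0.31 ± 0.085 (adjusted p = 0.00547). The hydroxylases EGLN1 (0.82) and EGLN3 (0.55), and CITED2 (0.88), which competes with HIF for its coactivator, rose. EGLN3 had 34.0, 29.7, 29.9 and 29.2 CPM in the 4 hypoxia libraries, so replicate 1 was the highest. With upper quartile scaling 6 of the 11 rose and none of the 4 falls was called.

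Glucose uptake and glycolysis rose broadly, with 17 of 23 genes higher, 2 lower and 4 not called (median 0.56, against 0.035 over all genes). The glucose transporter SLC2A3 stood at 7.80 to 9.26 CPM in normoxia and 32.8 to 35.8 CPM in hypoxia (2.05 ± 0.11), and SLC2A1 stood at 65.2 to 74.4 CPM in normoxia and 134 to 158 CPM in hypoxia (1.06 ± 0.071). PDK1, the kinase that holds pyruvate out of the mitochondrion, had 31.6, 32.7, 31.2 and 29.2 CPM in normoxia and 96.2, 102, 106 and 109 CPM in hypoxia (1.73 ± 0.061, adjusted p = 1.81e-20). All 4 hypoxia libraries lay above all 4 normoxia libraries for these 3 genes. PFKFB4, a regulator of phosphofructokinase, rose by 1.98 ± 0.082 and the aldolase ALDOC rose by 1.88 ± 0.085. PGK1 (1.04), ENO2 (1.17), HK2 (0.75) and LDHA (0.72) also rose, and PFKM (-0.33) and GPI (-0.18) fell. With upper quartile scaling and with the long and short gene covariate the GPI call was lost. Of the glycogen genes, the branching enzyme GBE1 rose by 1.11 ± 0.063.

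Secreted factors with a HIF link rose in 7 of 10 genes tested, with none lower and 3 not called (median 0.98). STC1, a glycoprotein hormone, went from 0.283, 0.0808, 0.0418 and 0.16 CPM to 3.36, 3.40, 3.22 and 3.11 CPM (4.44 ± 0.25), and no library overlapped. VEGFA, the vascular growth factor, had 69.7, 73.6, 69.6 and 68.8 CPM in normoxia and 147, 145, 143 and 137 CPM in hypoxia (1.02 ± 0.054, adjusted p = 3.36e-16). Adrenomedullin, ADM, stood at 6.75 to 8.39 CPM in normoxia and 17.4 to 21.0 CPM in hypoxia (1.40 ± 0.094). STC2 rose by 1.00 ± 0.047. PGF, a relative of VEGFA, stood at 14.3 to 16.6 CPM in normoxia and 24.8 to 37.4 CPM in hypoxia (1.01 ± 0.1), while the WT change was -0.0057 ± 0.11. That difference of 1.02 ± 0.15 had an adjusted p of 3.51e-06.

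Intracellular HIF targets gave 18 of 21 genes higher, 2 lower and 1 not called (median 1.23). The circadian repressor BHLHE40 had 42.5, 42.4, 44.1 and 43.4 CPM in normoxia and 233, 231, 213 and 234 CPM in hypoxia (2.40 ± 0.069). TMEM45A rose by 2.16 ± 0.078, the synaptic scaffold gene PPFIA4 by 2.16 ± 0.08, and ANKRD37 by 1.94 ± 0.14, the last overlapping UFSP2. NDRG1, a stress-induced gene, stood at 62.6 to 70.2 CPM in normoxia and 201 to 230.0 CPM in hypoxia (1.70 ± 0.061). The carbonic anhydrase CA12 (-0.39) fell. CA9, the carbonic anhydrase often used as a HIF readout, was too low to test, with 2 counts in normoxia and 66 in hypoxia. Its hypoxia counts were 42, 5, 13 and 6, so most came from replicate 1.

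HIF also reaches mitophagy, collagen and lipid genes. BNIP3, a mitophagy receptor, had 91.4, 86.4, 98.3 and 85.6 CPM in normoxia and 395, 369.5, 384 and 355 CPM in hypoxia (2.05 ± 0.06, adjusted p = 1.13e-22). BNIP3L (2.18), OPTN (1.37) and GABARAPL1 (0.36) rose with it. The autophagy genes SQSTM1 (-0.55), ULK1 (-0.52), PINK1 (-0.44), BECN1 (-0.41) and MAP1LC3B (-0.19) fell. The 12 genes of this list thus gave 4 higher, 5 lower and 3 not called, beside 29.3% of all genes higher and 29.5% lower. The MAP1LC3B call was lost without normoxia replicate 3. Of 12 collagen-modifying enzymes 7 rose and 2 fell, beside 29.3% and 29.5% of all genes. The rises were led by the prolyl hydroxylase subunit P4HA1, which stood at 51.9 to 61.3 CPM in normoxia and 273 to 283 CPM in hypoxia (2.31 ± 0.06). The lysyl hydroxylase PLOD2 (1.60) and the crosslinking oxidases LOX (1.58) and LOXL4 (1.51) rose, and PLOD3 (-0.91) fell. Of 18 histone lysine demethylases, which also need oxygen, 7 rose and 4 fell (median 0.054), near the 29.3% and 29.5% of all genes, with KDM3A at 1.49 ± 0.056. HILPDA, an inhibitor of fat breakdown on lipid droplets, rose by 2.32 ± 0.066. Of the 11 lipid droplet genes 3 rose and 6 fell, beside 29.3% and 29.5% of all genes. PNPLA2, the lipase HILPDA inhibits, was among the falls (-0.81). DDIT4, which restrains mTOR, stood at 59.4 to 69.4 CPM in normoxia and 309 to 410.5 CPM in hypoxia (2.46 ± 0.096), and TSC2 fell by 0.62 on the log2 scale.

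**Figure D1:**
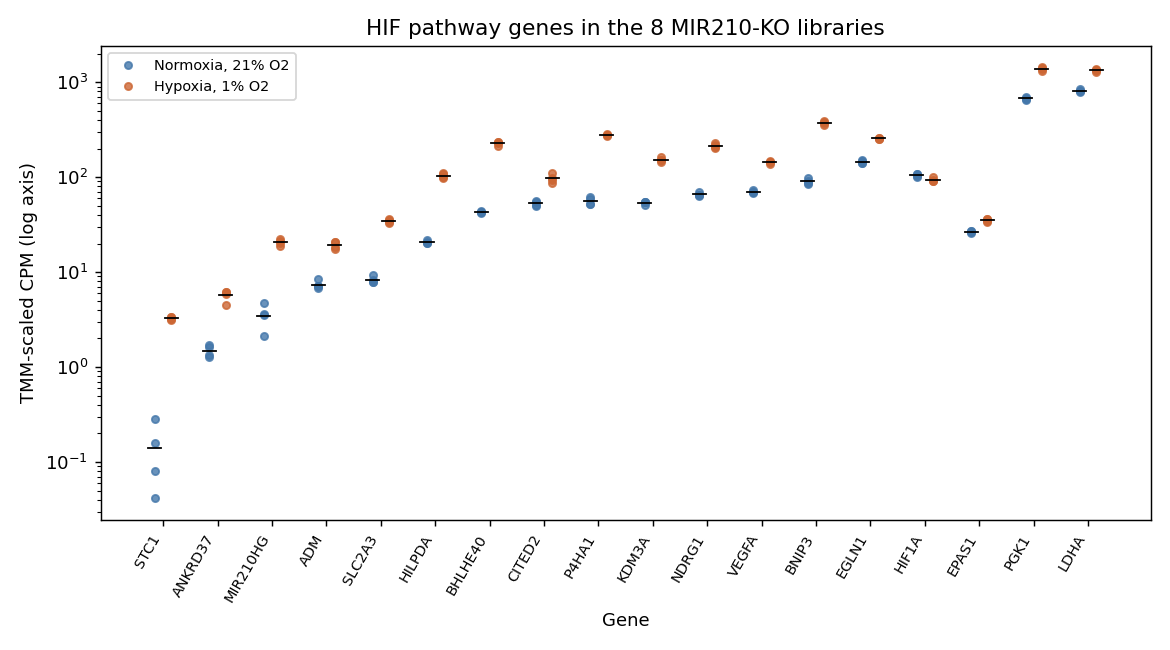
Levels of 18 HIF pathway genes in the 8 libraries of cells labelled MIR210-KO, in TMM-scaled CPM on a log axis. Each point is 1 library, blue for normoxia and orange for hypoxia, and each bar is the mean of 4. HIF1A is the 1 gene whose hypoxia points lie below its normoxia points, and BNIP3 went from 85.6 to 98.3 CPM up to 355 to 395 CPM.

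The promoters of 4 of these genes are printed because the core motif of HIF can be read in them. Each runs from 250 bases before to 50 bases after the RefSeq start (GRCh38.p14), 5′ to 3′ along the gene. Capitals mark ACGTG or GCGTG on either strand, which read CACGT or CACGC on the other strand. CACGTG is counted on both strands.
MIR210HG: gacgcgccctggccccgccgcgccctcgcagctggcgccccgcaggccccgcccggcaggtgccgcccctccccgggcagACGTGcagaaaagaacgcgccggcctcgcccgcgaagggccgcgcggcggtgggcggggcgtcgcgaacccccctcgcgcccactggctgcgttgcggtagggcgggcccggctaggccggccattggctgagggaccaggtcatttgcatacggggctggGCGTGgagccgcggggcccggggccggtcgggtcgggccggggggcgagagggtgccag
BHLHE40: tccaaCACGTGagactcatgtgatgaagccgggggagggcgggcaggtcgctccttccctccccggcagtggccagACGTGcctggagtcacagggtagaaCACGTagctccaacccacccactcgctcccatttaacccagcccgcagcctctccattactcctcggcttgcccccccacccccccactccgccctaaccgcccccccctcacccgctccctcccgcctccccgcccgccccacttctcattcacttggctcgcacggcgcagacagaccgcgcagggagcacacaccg
P4HA1: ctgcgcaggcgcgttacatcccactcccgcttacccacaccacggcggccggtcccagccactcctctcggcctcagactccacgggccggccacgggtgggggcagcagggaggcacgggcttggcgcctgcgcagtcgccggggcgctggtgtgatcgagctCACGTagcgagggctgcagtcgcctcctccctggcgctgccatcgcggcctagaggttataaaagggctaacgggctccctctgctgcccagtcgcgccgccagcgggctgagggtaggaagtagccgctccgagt
BNIP3: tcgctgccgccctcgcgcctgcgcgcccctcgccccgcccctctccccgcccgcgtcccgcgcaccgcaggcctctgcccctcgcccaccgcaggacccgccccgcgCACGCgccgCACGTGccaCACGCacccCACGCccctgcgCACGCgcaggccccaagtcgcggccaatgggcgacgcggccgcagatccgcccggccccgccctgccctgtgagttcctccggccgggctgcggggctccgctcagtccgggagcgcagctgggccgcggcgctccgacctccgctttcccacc
They lie at chr11:568408-568707 (MIR210HG, minus strand), chr3:4979187-4979486 (BHLHE40, plus strand), chr10:73096817-73097116 (P4HA1, minus strand) and chr10:131981874-131982173 (BNIP3, minus strand). Their RefSeq starts lay 0, 321, 108 and 90 bases from the gene starts in the count tables. MIR210HG held 2 matches, BHLHE40 4, P4HA1 1 and BNIP3 6. One of these motifs is common: 48.4% of 35116 RefSeq promoters of this length held either, and 21.4% held ACGTG. Of 11392 protein-coding genes tested with a promoter, 62.2% held either and 25.7% held ACGTG. The glycolysis, secreted factor, intracellular HIF target, mitophagy, collagen, demethylase and lipid droplet lists were taken whole, including members that did not rise. Of their 88 genes tested with a promoter, 65.9% held either and 36.4% held ACGTG. Among the 51 of these called higher, a subset chosen by its response, the shares were 72.5% and 51.0%. Among 540 protein-coding genes higher at least 2-fold, they were 49.3% and 21.7%. A match is a stretch of letters and not a measured binding site.

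Genes of the mitochondrion fell, from both genomes. Of the 13 protein genes of the mitochondrial genome, 12 were lower and MT-ND6 was not called (-0.02 ± 0.1), with a median of -0.99. MT-CO3, a subunit of cytochrome oxidase, had 3781, 4055, 4136 and 3926 CPM in normoxia and 994, 1050.3, 908 and 942 CPM in hypoxia (-2.03 ± 0.086). MT-CYB (-1.99) and MT-ATP6 (-1.80) fell almost as far, and MT-CO1 (-0.54), MT-ND5 (-0.36) and MT-ND4L (-0.29) fell less. MT-ATP6, MT-ATP8 and MT-CO3 overlap or abut, so reads can be split between them. The 2 ribosomal RNAs of the same genome went the other way. MT-RNR1 had 296, 302, 278 and 299 CPM in normoxia and 901, 868, 745 and 854 CPM in hypoxia (1.52 ± 0.066), and MT-RNR2 rose by 0.78 ± 0.065. In WT cells the log2 change of MT-RNR2 was 1.56, a difference of -0.77 ± 0.092 (adjusted p = 1.34e-07).

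**Figure D2:**
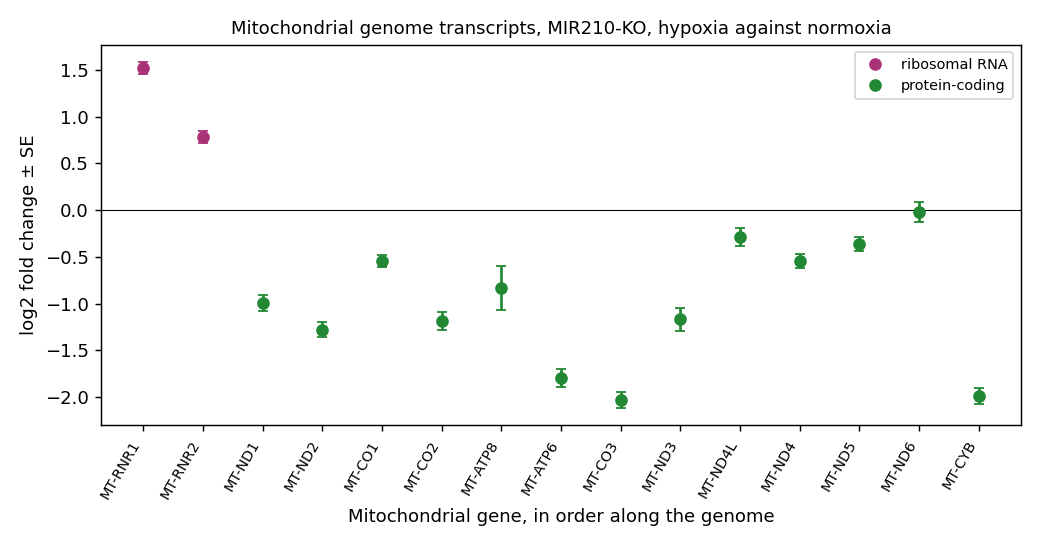
Log2 fold change of mitochondrial genome transcripts, hypoxia against normoxia, in cells labelled MIR210-KO, in order along the genome. Points are edgeR estimates over 4 against 4 libraries and bars are 1 SE. The 2 ribosomal RNAs lie above 0, MT-ND6 lies at -0.02, and the other 12 protein genes lie below, down to -2.03 for MT-CO3.

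Of 77 nuclear genes of the respiratory chain, 65 fell, 2 rose and 10 were not called (median -0.57). The ATP synthase subunit ATP5ME (-1.62) and the complex I subunit NDUFS6 (-1.52) fell most, and NDUFA4L2, a HIF target, rose by 1.59 ± 0.35. Of 20 genes of the tricarboxylic acid cycle and its entry, 16 fell and 1 rose. IDH3B (-0.85), OGDH (-0.85) and PC (-0.84), which makes oxaloacetate from pyruvate, fell. Of 78 mitochondrial ribosomal protein genes, 66 fell and none rose (median -0.59). These medians kept their sign with upper quartile scaling.

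Ribosome production and protein synthesis genes fell as well. Of 30 ribosome biogenesis and MYC genes, 29 fell and 1 rose (median -0.65), with RRP12 (-1.54), RRP9 (-1.46) and BOP1 (-1.40) lowest. MYC, which drives this program, stood at 379 to 427 CPM in normoxia and 242 to 271 CPM in hypoxia (-0.66 ± 0.062). Of 20 cytosolic aminoacyl-tRNA synthetases, which load amino acids onto tRNAs, 17 fell and 1 rose, with VARS at -1.46 ± 0.082 and DARS at 0.33 ± 0.064. Of 23 small nucleolar RNA host genes, 15 fell and 2 rose. Of 83 cytosolic ribosomal protein genes, 61 fell and 1 rose (median -0.33). With the balance of long and short genes as a covariate that last count became 21 lower and 17 higher. These are short transcripts, and the balance of long and short genes moved with oxygen in these libraries, as given above; its part in the result was not tested.

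**Figure D3:**
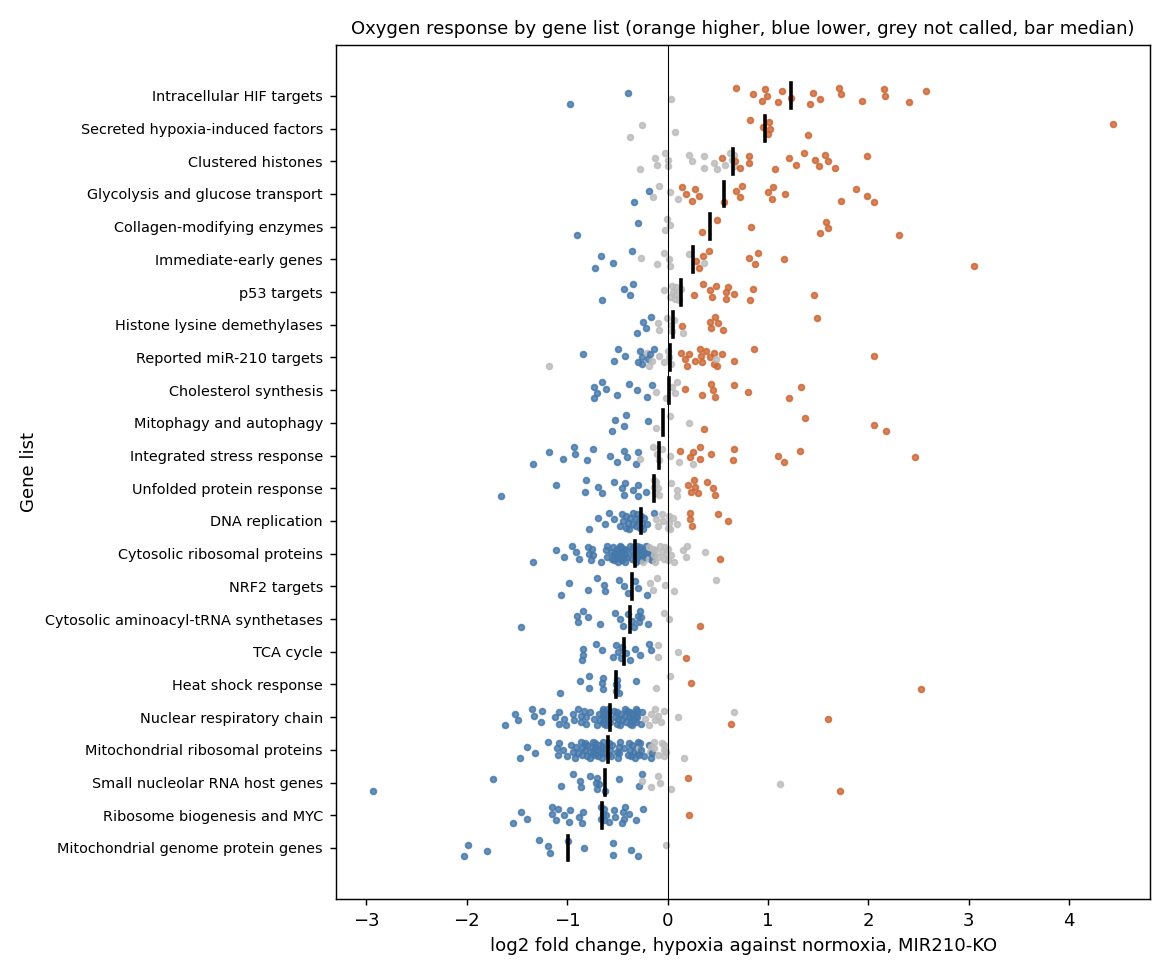
Log2 fold change of the tested members of 24 gene lists, hypoxia against normoxia, in cells labelled MIR210-KO. Each point is 1 gene, orange where called higher, blue where called lower and grey where not called, and each black bar is the list's median. The medians run from 1.23 for intracellular HIF targets to -0.99 for mitochondrial genome protein genes.

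The unfolded protein response moved unlike that of WT. Its genes are switched on when unfolded proteins build up in the endoplasmic reticulum. Of 31 genes, 8 rose, 14 fell and 9 were not called in the knockout-labelled cells, beside 29.3% of all genes higher and 29.5% lower. The median was -0.13, and it was 0.0090 with upper quartile scaling. In WT 23 of the same 31 rose and 3 fell (median 0.54), where 5899 of 19952 genes were higher and 6123 lower. HSPA5 (BiP), the Hsp70 chaperone of the reticulum's lumen, had 525, 525, 530.1 and 504 CPM in normoxia and 332, 321, 319.7 and 317 CPM in hypoxia, with no overlap. The log2 change was -0.69 ± 0.057 (adjusted p = 6.10e-12). In WT its levels were 480.3 to 545 CPM in normoxia and 1978 to 2504 CPM in hypoxia (2.12 ± 0.058), and in MIR210HG-KO its levels were 513 to 544 CPM in normoxia and 509 to 555 CPM in hypoxia (0.034 ± 0.056). The response minus that of WT was -2.81 ± 0.081 (adjusted p = 3.78e-22), and minus that of MIR210HG-KO it was -0.73 ± 0.08 (adjusted p = 4.22e-07). Normoxia levels of HSPA5 overlapped between the 3 genotypes, so the hypoxia libraries carried the difference.

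Other members followed. XBP1, a transcription factor of the response, stood at 127 to 139 CPM in normoxia and 91.0 to 109 CPM in hypoxia (-0.44 ± 0.06) and rose by 1.22 ± 0.059 in WT. The chaperone partners SDF2L1 (-1.66), HYOU1 (-0.82), DNAJB11 (-0.81) and MANF (-0.65) fell, and so did CRELD2 (-1.11). The oxidases ERO1A (0.47) and ERO1B (0.45), which form disulfides, EDEM1 (0.40) and HSP90B1 (0.31) rose. Tested gene by gene, the response was below that of WT in 27 of the 31 and above it in none, against 14.0% and 12.5% of all genes. Without WT hypoxia replicates 1 and 3 it was below in 22 and above in none. Against MIR210HG-KO the response was below in 10 of the 31 and above in none, where 3.54% of all genes differed in either direction, a share that moves with the settings given for that comparison.

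**Figure D4:**
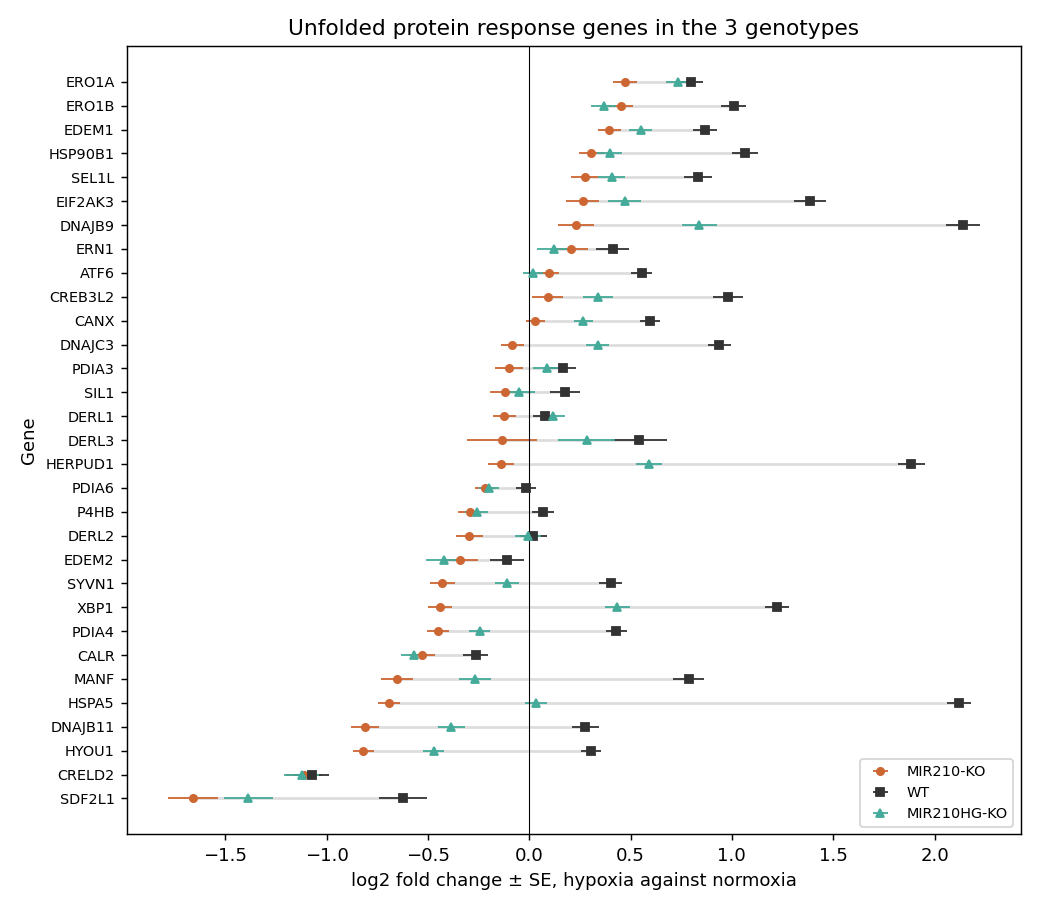
Log2 fold change of 31 unfolded protein response genes, hypoxia against normoxia, in the 3 genotypes, ordered by the change in cells labelled MIR210-KO. Orange circles are MIR210-KO, black squares WT and green triangles MIR210HG-KO, with bars of 1 SE. HSPA5 spans from -0.69 in MIR210-KO to 2.12 in WT.

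The integrated stress response, in which ATF4 drives amino acid supply and DDIT3 drives cell death genes, moved in both directions. Of 33 genes, 12 rose, 13 fell and 8 were not called, not far from the 29.3% of all genes higher and 29.5% lower. The median was -0.084, and it was 0.058 with upper quartile scaling. DDIT3 had 4.06, 3.88, 4.22 and 2.96 CPM in normoxia and 10.7, 8.61, 9.61 and 8.87 CPM in hypoxia (1.32 ± 0.13), and it overlaps MARS and MBD6. In WT it rose by 2.79 ± 0.11, a difference of -1.47 ± 0.17 (adjusted p = 7.43e-08). ATF3 stood at 37.7 to 40.7 CPM in normoxia and 78.3 to 99.9 CPM in hypoxia (1.16 ± 0.071), and in WT its levels were 87.5 to 103 CPM in normoxia and 759 to 889.6 CPM in hypoxia (3.10 ± 0.072). ATF4 itself (-0.43), ATF5 (-1.34) and the amino acid transporter genes SLC7A5 (-1.18) and SLC6A9 (-1.04) fell. TRIB3, an ATF4 and DDIT3 target, fell by 0.57 on the log2 scale and rose by 1.62 ± 0.071 in WT. Against WT the response was below in 22 of 33 and above in 3, where 14.0% and 12.5% of all genes were. Against MIR210HG-KO it was below in 24 and above in none. There 3.54% of all genes differed in either direction, a share that moves with the settings. CHAC1, which degrades glutathione, was not called in the knockout-labelled cells (0.25 ± 0.12) and its response was -1.56 ± 0.17 relative to MIR210HG-KO (adjusted p = 4.22e-07).

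Immediate-early genes responded below WT in most cases. Of 20 genes, 9 rose, 4 fell and 7 were not called, beside 29.3% of all genes higher and 29.5% lower. Against WT the response was below in 16 and above in none, where 14.0% and 12.5% of all genes were. By the list's median, MIR210HG-KO cells lay nearer to these than WT did. The list's median was 0.25 here, 0.17 in MIR210HG-KO and 1.14 in WT. Against MIR210HG-KO the response was below in 2 genes, ATF3 (-1.05) and KLF4 (-0.56), and above in none. There 3.54% of all genes differed in either direction, a share that moves with the settings. JUN rose by 0.81 ± 0.066 here, by 0.80 ± 0.066 in MIR210HG-KO and by 1.74 ± 0.067 in WT. ARC, a neuronal activity gene, fell by 0.72 on the log2 scale and rose by 2.20 ± 0.21 in WT, and the call of the fall here was lost with the long and short gene covariate. It stood at 3.47 to 4.80 CPM in normoxia and 2.13 to 3.18 CPM in hypoxia here, and at 1.04 to 1.86 and 4.53 to 8.53 CPM in WT, so in normoxia the lines were apart as well, with WT the lower.

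**Figure D5:**
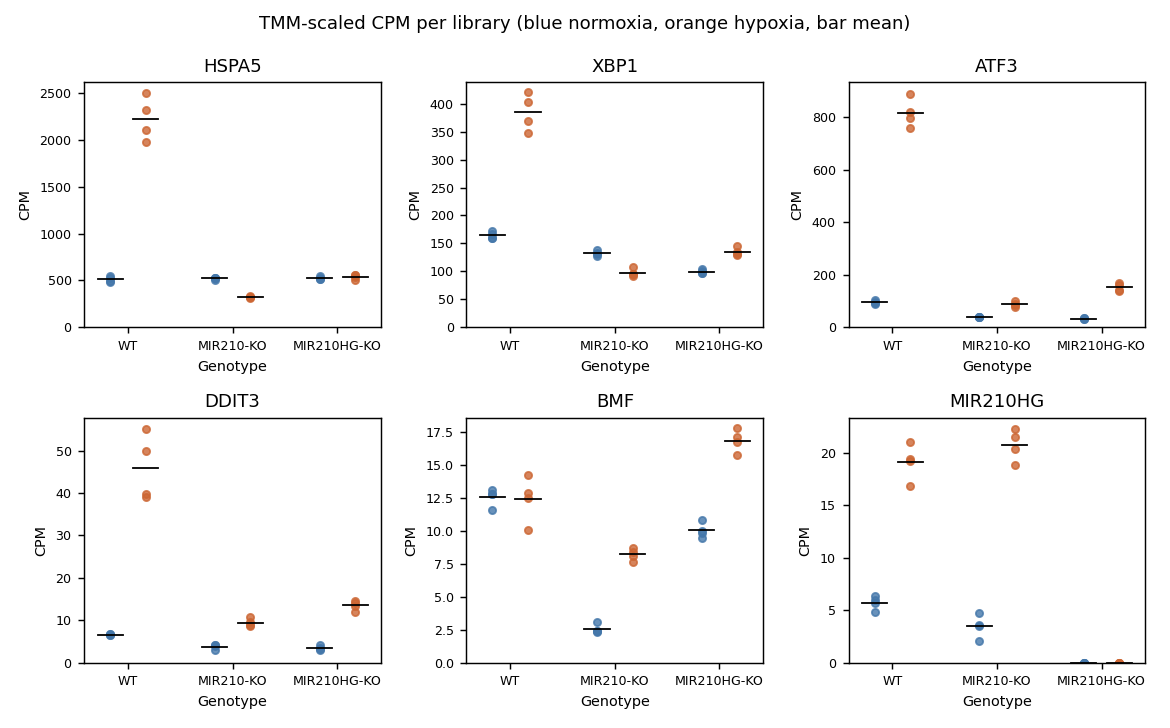
Levels of 6 genes in all 24 libraries, in TMM-scaled CPM on linear axes from 0. Each point is 1 library, blue for normoxia and orange for hypoxia, grouped by genotype, and bars are means of 4. HSPA5 reached 1978 to 2504 CPM in WT hypoxia and 317 to 332 CPM in MIR210-KO hypoxia, and MIR210HG was at 0 in MIR210HG-KO.

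Over all genes, the response of the knockout-labelled cells differed from that of WT for 5287 genes (26.5%), 2495 above and 2792 below. The 2 contrasts share no library. In WT 5899 of the 19952 genes tested were higher in hypoxia and 6123 were lower. Of the genes higher in the knockout-labelled cells 64.5% were higher in WT (3766 genes, 63.8% of the WT list). Of the genes lower in the knockout-labelled cells 73.8% were lower in WT (4335 genes, 70.8% of the WT list). Opposite calls with a called difference were found for 227 genes higher here and lower in WT and for 365 genes lower here and higher in WT. Differences were ranked over genes also called in the oxygen response here, with a mean of at least 5 CPM in some compared group. The largest difference upward in that ranking was in BMF, a BCL2-family gene that promotes cell death. It had 2.37, 3.07, 2.30 and 2.44 CPM in normoxia and 8.12, 8.74, 8.41 and 7.64 CPM in hypoxia (1.70 ± 0.11), and in WT 11.6 to 13.1 and 10.1 to 14.2 CPM. The difference was 1.71 ± 0.14 (adjusted p = 1.59e-10). The knockout-labelled cells lay below WT at both oxygen levels, and further below in normoxia. In the same ranking the small heat shock gene HSPB8 (-3.32) and C11orf96 (-3.50) showed the lowest differences from WT. Of 23 glucose genes the response was above WT in 8 and below in 4, where 12.5% and 14.0% of all genes were. The count below thus lies near the share of all genes. It is made up of HK2 (-1.21), SLC2A3 (-0.93), ENO2 (-0.88) and SLC2A1 (-0.55). Among those above were PDK3 (0.48), PFKL (0.39) and PKM (0.30). Without hypoxia replicate 1, or without replicate 4, the count above was 5. The VEGFA response was also below that of WT (difference -0.69 ± 0.075, adjusted p = 2.05e-08).

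The response differed from that of MIR210HG-KO for 707 genes (3.54%). That count was 319 with the replicate block and 1412 with the long and short gene covariate. It was 457 without normoxia MIR210-KO replicate 2, 467 without hypoxia MIR210HG-KO replicate 4 and 1106 without normoxia MIR210HG-KO replicate 3. STC2 rose less here (difference -1.05 ± 0.066, adjusted p = 3.73e-12), and so did LOX (-1.39) and the AMP deaminase AMPD3 (-2.08). ZNF331 (1.06) and the proteasome assembly gene PSMD5 (1.60) rose more. PSMD5 stood at 0.444 to 0.601 CPM in normoxia and 1.33 to 1.63 CPM in hypoxia here, and at 15.6 to 19.2 and 15.3 to 16.8 CPM in MIR210HG-KO, so the levels of these lines were apart at both oxygen levels. MIR210HG cannot be compared with MIR210HG-KO, where all 8 libraries had 0 counts.

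Reported targets of miR-210 showed no common direction. Of 38 genes, 17 rose, 11 fell and 10 were not called (median 0.023), and the response was above that of WT in 3 and below it in 7. Over all genes 29.3% were higher and 29.5% lower, and 12.5% were above and 14.0% below WT, so the shares of this list lie near those of all genes or under them, apart from the 17 that rose. The iron-sulfur scaffold ISCU had 58.0, 55.8, 57.3 and 56.2 CPM in normoxia and 53.7, 51.6, 51.8 and 49.3 CPM in hypoxia (-0.14 ± 0.06, adjusted p = 0.0469), and the difference from WT was -0.0034 ± 0.085. The direction of ISCU turned to 0.0035 with upper quartile scaling and to 0.024 with the long and short gene covariate, and its call held only in the fit to the compared libraries and without hypoxia replicate 1. COX10, which makes the haem of cytochrome oxidase, fell here (-0.42 ± 0.068) and its change was -0.00093 ± 0.067 in WT, a difference of -0.42 ± 0.096 (adjusted p = 0.00111). KCMF1, a ubiquitin ligase, was not called here (-0.032 ± 0.057) and rose by 0.63 ± 0.056 in WT, a difference of -0.66 ± 0.08 (adjusted p = 1.72e-07). NPTX1, a secreted pentraxin, changed by -0.49 here and by -0.97 in WT, a difference of 0.48 ± 0.091. Of the 38 genes 15 held the 7 bases that pair with the seed, ACGCACA, in their 3′ UTR. The sites of COX10, KCMF1 and STMN1 are shown with these bases in capitals, from GENCODE transcripts on GRCh38.
COX10: ttaccaccacaccacACGCACAct
KCMF1: ctttgtgtgcctcctACGCACAaa
STMN1: tggtagaaatacccaACGCACAaa
They lie in the 3′ UTRs at chr17:14207547-14207570 (plus strand), chr2:85053948-85053971 (plus strand) and chr1:25900454-25900477 (minus strand). STMN1, which destabilises microtubules, rose by 0.35 ± 0.08 here and its change was 0.00077 ± 0.08 in WT, so these 3 genes with a site differ from WT in both directions. Of 14408 tested genes with a 3′ UTR, 482 held the 7 bases, and the median difference from WT was 0.063 for them and -0.023 for the 13926 without. The difference was called above WT for 20.1% and below for 14.9% of the genes with the bases, against 13.5% and 18.4% of those without. For the 87 genes where an A follows the 7 bases, the median difference was smaller, at 0.022, with 19.5% above and 11.5% below. The length of the 3′ UTR was not taken into account, and a cause of these differences was not tested.

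Further lists are read against the 29.3% of all genes higher and 29.5% lower. Cholesterol synthesis split, with 9 of 24 genes higher and 10 lower, IDI1 (1.33) and the sterol carrier STARD4 (1.21) against the isomerase EBP (-0.73). Fatty acid synthase, FASN, fell, with 1439 to 1614 CPM in normoxia and 631 to 736 CPM in hypoxia (-1.16 ± 0.099), while the desaturase SCD rose by 0.65 ± 0.046. NRF2 targets fell in 12 of 18 genes and rose in none, with SRXN1 (-1.06) and NQO1 (-0.79) among them. HMOX1, the haem oxygenase, fell by 0.64 on the log2 scale here and rose by 1.05 ± 0.072 in WT. Heat shock genes fell in 13 of 17, with HSPE1 (-1.07) and HSPA8 (-0.79), and rose in 2. DNA replication genes fell in 26 of 41 and rose in 5, with MCM7 (-0.70) and CCNE1 (-0.78) lower. Of 25 p53 targets 12 rose and 4 fell, TP53INP1 (1.46) most, in a line whose large T antigen binds p53. Of 32 clustered histone genes tested 15 rose and none fell. Most of their transcripts normally lack a poly(A) tail. Mesenchymal genes rose in 6 of 14 and fell in 4, not far from those shares, and the 15 entries summed to 562 to 616 CPM in normoxia and 802 to 819 CPM in hypoxia. Smooth muscle actin ACTA2 (1.69) rose and the collagen COL3A1 (-1.27) fell. Of kidney genes 3 of 14 rose and 4 fell, near or under the shares of all genes, with WT1 (-1.29) among the falls and EYA1 (0.90) among the rises.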

How the data were processed

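Gene-level counts from mRNA sequencing of 24 HEK293T libraries were used as deposited. Per the labels' protocols, TRIzol was used for total RNA and a NEBNext Ultra kit for library preparation. STAR 2.6.1d, featureCounts 1.5.0-p3, DESeq2 1.20.0, edgeR 3.24.3 and GRCh38 are named in the submitters' processing notes. Strand setting and annotation release are not given in the sources used here. The deposited tables also hold gene length, from which each library's level of protein-coding genes of at least 8000 bases was set against those of at most 1500.

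The 2 tables were joined on 58735 gene identifiers. Low counts were filtered by edgeR's filterByExpr over the 6 groups, which left 19952 genes, and TMM factors were applied. All libraries entered 1 quasi-likelihood fit with 1 mean per group (edgeR 4.0.16, R 4.3.3). Tests were two-sided F tests with Benjamini-Hochberg adjustment over all tested genes, called at 0.05. SEs are the log2 change divided by the square root of F. Differences between genotypes are interaction contrasts in that fit. DESeq2 1.42.0 served as an alternative. The fit was tested on simulated data. Totals of 25960367 to 36126739 counts per library limit the precision of genes under about 1 CPM.

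Named genes are a fixed set of 15, up to 4 members with the largest change per list, and members of the HIF-related lists. Added to these are the 10 highest and 10 lowest protein-coding and 3 highest and 3 lowest long non-coding genes. Those rankings took genes with at least 5 CPM and no overlap. The 5 highest and 5 lowest genes of each interaction complete the rule, ranked over genes also called in the oxygen response here. A mean of at least 5 CPM in some compared group was asked of them. Genes outside that rule (ATF4, CHAC1, COX10, DARS, EBP, EDEM1, ERO1A, ERO1B, HMOX1, HSP90B1, JUN, KCMF1, MANF, MT-CO1, MT-ND4L, MT-ND5, MT-ND6, MT-RNR1, MT-RNR2, MYC, NPTX1, SLC6A9, STMN1, TRIB3, XBP1) were chosen after their values were seen. The lists and members were chosen with earlier results of these data known. No pairing of the libraries by replicate number was seen, which does not exclude it. A few list members are not reported here.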

Additional observations from a re-analysis of the deposited data

Results flagged for a closer look

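Single libraries lay far from the other 3 of their group in 9 of 114 groups of 4 (57 named genes in the cells labelled MIR210-KO), where chance gives about 1 in 20. In hypoxia, BHLHE40 was 213 CPM in replicate 3 (low), DOLK 3.86 CPM in replicate 2, MT-ATP6 1239.9 CPM in replicate 2 and EGLN3 34.0 CPM in replicate 1 (high). In normoxia, TXNDC5 was 14.6 CPM and HSPB8 1.56 CPM in replicate 4, C11orf96 4.59 CPM and IL15RA 6.64 CPM in replicate 1, and ZNF467 3.11 CPM in replicate 2.

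The oxygen response differed from that of WT, by the interaction test of edgeR, in BMF (1.71 ± 0.14), MAP2K6 (1.49 ± 0.11), ALOX12 (1.38 ± 0.22, overlapping ALOX12-AS1), NYNRIN (1.37 ± 0.12) and LINC00638 (1.37 ± 0.21), all above WT on the log2 scale. It was below WT in C11orf96 (-3.50 ± 0.22), HSPB8 (-3.32 ± 0.28), ARC (-2.92 ± 0.29), INHBA (-2.91 ± 0.62) and HSPA5 (-2.81 ± 0.081). In C11orf96 the levels in the cells labelled MIR210-KO were 4.59 to 6.18 CPM in normoxia and 4.05 to 4.88 CPM in hypoxia, against 2.97 to 5.18 and 24.3 to 38.2 CPM in WT. INHBA stood at 0 to 0.209 CPM in normoxia and 0.233 to 0.545 CPM in hypoxia here, against 0.271 to 0.408 and 6.78 to 8.84 CPM in WT. Its levels here were under 1 CPM, and at 0 at the lowest, so the size of its fitted difference is uncertain.

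The response differed from that of MIR210HG-KO in PSMD5 (1.60 ± 0.22), PLA2G16 (1.2004 ± 0.28), ZNF467 (1.14 ± 0.17), ZNF331 (1.06 ± 0.12) and ZNF710-AS1 (1.05 ± 0.23, overlapping ZNF710), all above. It was below in CPNE7 (-4.26 ± 0.85), AMPD3 (-2.08 ± 0.27), CYBA (-1.48 ± 0.31), LOX (-1.39 ± 0.1) and IL15RA (-1.31 ± 0.36). The IL15RA call was lost with most single libraries left out. CPNE7 stood at 0 to 0.0384 CPM in MIR210HG-KO normoxia, so its fitted difference depends on the prior count and is no bound.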

How the results depend on the processing

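The counts of genes higher and lower in hypoxia stayed within 1.5 times under other scaling factors, filters, DESeq2, the replicate block and the long and short gene covariate. A test against a 2-fold minimum, which asks for larger changes, gave 335 genes higher, 198 lower, 44 that differed from WT and 1 that differed from MIR210HG-KO. With each library left out in turn, the range was 5293 to 5645 higher, 5619 to 5895 lower and 4649 to 5714 for the difference from WT. For the difference from MIR210HG-KO the range was 457 (without normoxia MIR210-KO replicate 2) to 1106 (without normoxia MIR210HG-KO replicate 3), with 467 without hypoxia MIR210HG-KO replicate 4. The long and short gene covariate gave 1412 for it; the cause was not tested. Same-numbered libraries deviated with correlations of -0.064, -0.0091, -0.022 and 0.036, and differently numbered ones reached 0.074. No pairing by number was seen, but a shared culture or day need not leave such a correlation, so pairing is not excluded. The replicate block gave 5531 higher, 5690 lower, 4592 for WT and 319 for MIR210HG-KO. Without WT hypoxia replicates 1 and 3 the difference from WT was called for 5027 genes. Upper quartile scaling gave 7770 higher and 4348 lower. ISCU turned to 0.0035 under it and to 0.024 under the covariate. Of the named gene results, MT-ND4L lost its call under upper quartile scaling, and ARC and PINK1 under the covariate. Genes near 1 CPM or below, such as CA9, are limited by depth.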
